A study of Mus musculus with 12 samples.

Results

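The proteins of the mitochondrial ribosome that carry an Mrpl or Mrps symbol were followed in mouse adipose tissue after a short high-fat diet (HFD). Members were all genes whose symbol on the array began with Mrpl or Mrps and a number, each read through the probe set (a group of short probes for 1 transcript) with the highest mean over 12 arrays. This gave 76 genes, 47 named Mrpl and 29 named Mrps, among 18193 genes with a symbol, and all 76 were above the signal filter that kept 13311 genes for testing. Members were chosen by name, but the family was selected on the measured difference of Mrps6 between 5 days of HFD and chow, where that gene stood out. The values of Mrps6 in that comparison are therefore a description with no test, and the question asked was whether Mrps6 moved alone.

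The mice were C57Bl/6, and the labels name no transgene, deletion or drug. The chow group stayed on standard feed in which fat supplied 13% of calories. The other groups were switched at 6 weeks of age to an HFD with 46% of calories from fat and kept on it for 5 days or 14 days. Each group had 4 arrays, 12 in all, and the signals are log2 values from single-colour Affymetrix arrays. The adipose depot is not named, and how old the chow mice were when sampled is not stated, so diet and age cannot be told apart. The labels call the samples of a group replicates without saying that each came from its own animal, so each p below measures the spread between these samples, which may be technical. In bulk tissue a change in the share of a cell type and a change in RNA per cell cannot be told apart.

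Mitochondria keep a small genome of their own that codes for a few core subunits of the respiratory chain and of ATP synthase, and for the RNAs of a dedicated ribosome. All proteins of that ribosome are coded in the nucleus, made in the cytosol and imported, so that building it needs products of both genomes. Its large subunit joins amino acids and its small subunit reads the messenger RNA. Some of its proteins descend from those of bacterial ribosomes and others were added in mitochondria. White adipocytes use mitochondria for fatty acid synthesis, the handling of branched-chain amino acids and, in thermogenic adipocytes, heat.

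Start regions are shown for Mrps6, whose start lies beside that of another gene, and for Mrpl57, Mrpl43 and Mrpl33, the members with the next smallest p in both comparisons with chow. Each line runs 5′ to 3′ on the strand of the gene, from 185 bases before the RefSeq start to 14 bases after it (RefSeq, GRCm38.p6). In Mrps6 the capitals run from the start of Slc5a3 to the start of Mrps6. In the other lines they mark matches on either strand to CCGGAAG, the core of sites for ETS factors such as GABP, or to the NRF1 motif, whose match is the first run of capitals in the Mrpl57 line. These factors are known regulators of nuclear genes for mitochondrial proteins. The Mrps6 line is chr16:92058151-92058350 on the plus strand. The Mrpl57 line is chr14:57826054-57826253 on the plus strand. The Mrpl43 line is chr19:45006428-45006627 on the minus strand. The Mrpl33 line is chr5:31613766-31613965 on the plus strand.
Mrps6: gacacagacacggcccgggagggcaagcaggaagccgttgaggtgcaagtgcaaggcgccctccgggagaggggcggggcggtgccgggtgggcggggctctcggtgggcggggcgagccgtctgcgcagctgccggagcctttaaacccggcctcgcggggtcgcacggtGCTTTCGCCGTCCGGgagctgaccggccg
Mrpl57: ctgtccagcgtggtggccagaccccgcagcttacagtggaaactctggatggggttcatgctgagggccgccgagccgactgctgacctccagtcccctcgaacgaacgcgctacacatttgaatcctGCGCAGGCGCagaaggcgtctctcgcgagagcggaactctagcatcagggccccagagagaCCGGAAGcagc
Mrpl43: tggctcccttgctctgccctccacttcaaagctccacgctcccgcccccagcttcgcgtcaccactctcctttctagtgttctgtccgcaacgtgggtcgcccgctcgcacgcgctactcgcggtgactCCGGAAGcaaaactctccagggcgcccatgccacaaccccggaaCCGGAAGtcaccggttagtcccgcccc
Mrpl33: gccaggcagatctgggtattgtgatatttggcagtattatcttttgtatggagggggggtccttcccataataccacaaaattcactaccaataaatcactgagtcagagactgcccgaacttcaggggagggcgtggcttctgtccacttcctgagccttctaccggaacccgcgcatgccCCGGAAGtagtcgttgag

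Array medians over all probe sets lay between 8.09 and 8.14, and correlations between arrays between 0.956 and 0.997. Markers of the labelled tissue were high in every array: the median of 10 adipocyte genes ran from 14.03 to 14.49 over the 12 arrays. Markers of neighbouring tissues varied between single arrays. The median of 4 epididymis genes ran from 7.30 to 14.22, highest in 14-day array 4 and next highest in 5-day arrays 1 to 3. The median of 8 skeletal muscle genes was 12.85 in chow array 3 and 12.51 in 5-day array 2, against at most 9.21 elsewhere. The median of 9 liver genes ran from 7.66 to 13.50, highest in 5-day array 4 and 14-day array 1. The 3′ minus 5′ signal of Gapdh, a sign of RNA quality, was 0.272 in 5-day array 4 and 0.276 in 14-day array 2 and at most 0.134 in the rest. No gene passed an adjusted p of 0.05 (limma, Benjamini-Hochberg over 13311 genes) in any of the 3 comparisons. At an unadjusted p under 0.05, 590 genes were higher and 755 lower at 5 days against chow, 488 and 573 at 14 days against chow, and 235 and 105 at 14 against 5 days.

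Mrps6, the mitochondrial counterpart of bacterial small subunit protein S6, had the largest difference of all 76 members in both comparisons with chow. Its signal was 12.13, 12.03, 11.73 and 12.08 on chow, 12.77, 12.53, 12.73 and 12.91 after 5 days, and 12.67, 12.32, 12.86 and 12.55 after 14 days. Every HFD array lay above every chow array, while the 5-day and 14-day arrays overlapped. At 5 days the mean was higher by 0.745 ± 0.13 (SE, n = 4 per group), which is 1.68-fold. At 14 days it was higher by 0.61 ± 0.13, or 1.52-fold, with an adjusted p of 0.407 in limma. That comparison uses the same chow arrays as the comparison that drew attention to the gene. Between 14 and 5 days the difference was -0.14 ± 0.13 (adjusted p = 0.999, limma).

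The second probe set of Mrps6, dimmer but above the filter, gave 0.68 at 5 days and 0.53 at 14 days. Its chow arrays were at 11.21, 11.13, 10.91 and 11.11, its 5-day arrays at 11.85, 11.64, 11.71 and 11.90, and its 14-day arrays at 11.73, 11.27, 11.93 and 11.56. The HFD arrays again did not overlap chow. Some of the variation in tissue markers was taken into account. This was done for the brighter probe set only, and the second was not read in these settings. With the mean of the epididymis markers as a covariate the difference of the brighter probe set was 0.85 at 5 days and 0.65 at 14 days. Without the HFD arrays numbered 4 it was 0.69 and 0.62, and without the arrays of high muscle markers 0.73 and 0.52. The part of the liver markers and of the other cell type markers given below was not tested. Leaving out each array in turn gave 0.66 to 0.81 at 5 days and 0.52 to 0.70 at 14 days, again for the brighter probe set.

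**Figure D1:**
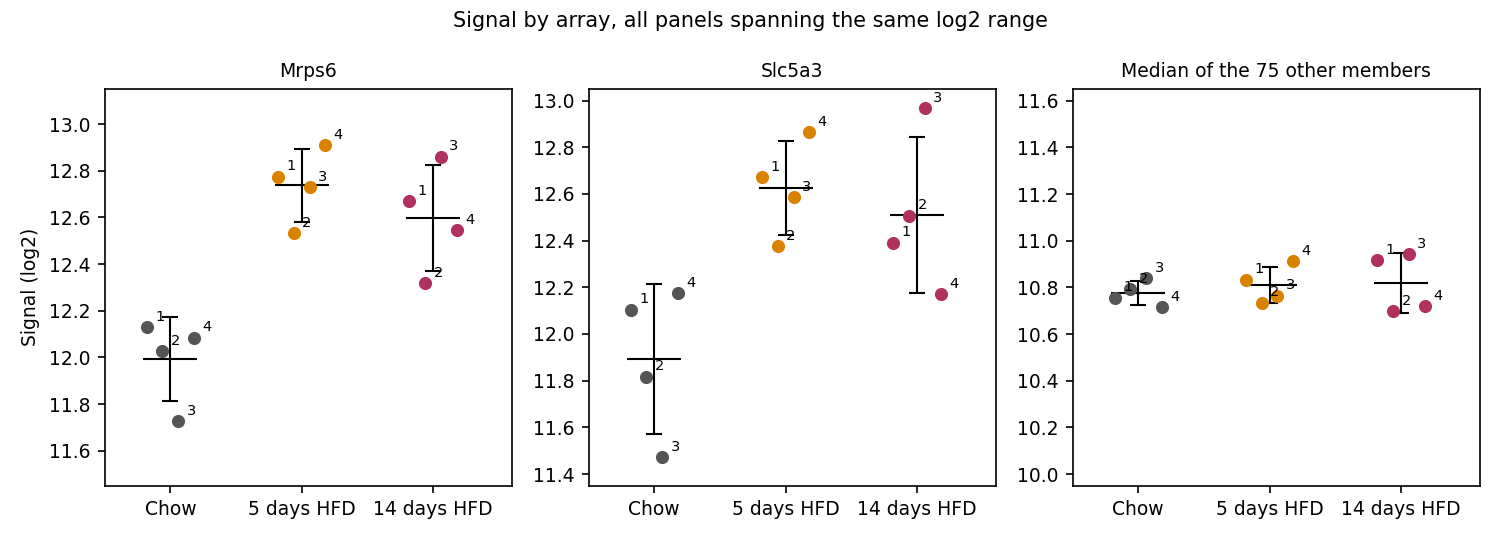
Log2 signal of Mrps6, of Slc5a3 and of the median of the other 75 members in each array (points, with the array number), with the group mean and SD as bars; each panel spans the same log2 range. Mrps6 sat between 12.32 and 12.91 in the HFD arrays, above all chow arrays, while the median of the other members stayed between 10.70 and 10.94 throughout.

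None of the other 75 members came near that size. The next largest difference was 0.30 at 5 days (Mrpl54) and 0.30 at 14 days (Mrpl57), or 1.24-fold and 1.23-fold. At 5 days 6 of the 75 were higher by over 0.2 and none was lower by that much, and 51 were within 0.1 of chow. At 14 days 7 were higher by over 0.2, none was lower by that much, and 47 were within 0.1. The gap between Mrps6 and the median of the other members, whose shift but not its size can be read across probe sets, was 0.889 to 1.372 on chow, 1.797 to 1.999 after 5 days and 1.621 to 1.919 after 14 days. Leaving Mrps6 out moved the family median from 0.056 to 0.055 at 5 days and from 0.078 to 0.076 at 14 days.

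**Figure D2:**
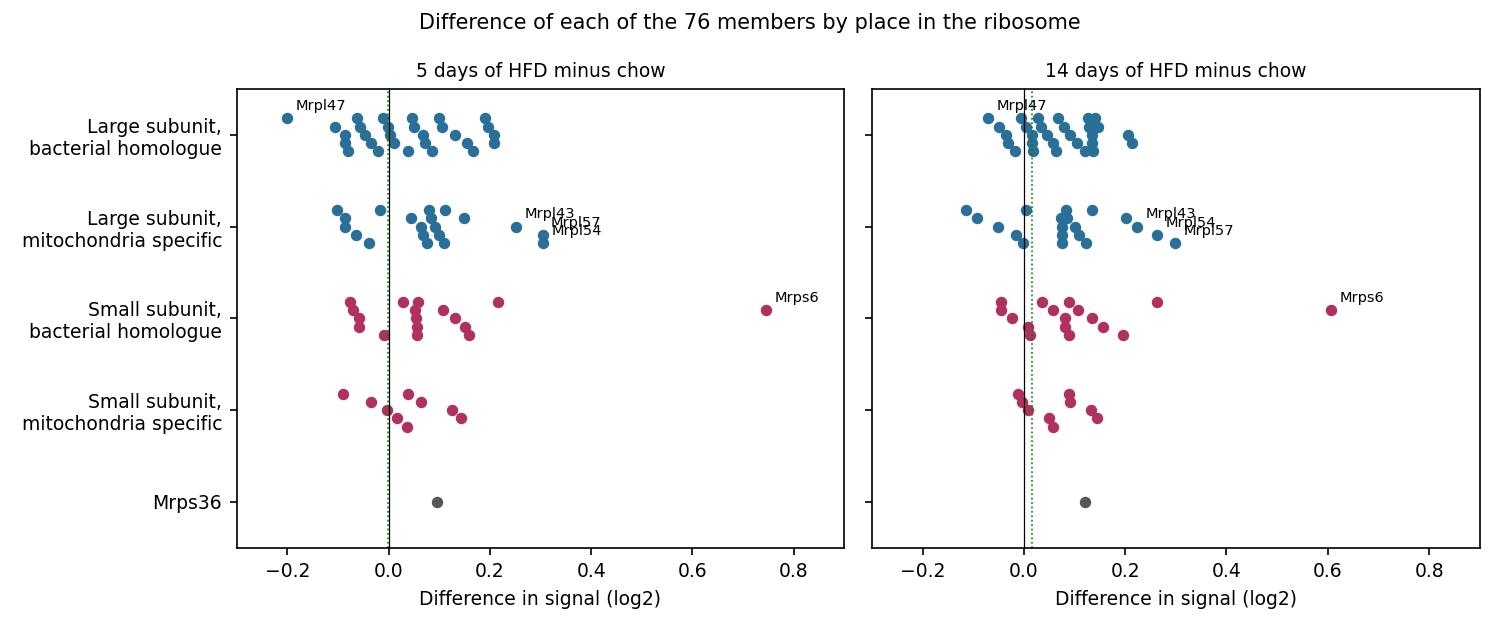
Difference in log2 signal from chow of each of the 76 members (1 point each) at 5 days and at 14 days, in rows by subunit and origin, with a solid line at 0 and a dotted line at the median of all genes tested. Mrps6 stands at 0.745 and 0.61, and every other member lies between -0.20 and 0.30.

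Among the family and the listed genes near Mrps6 on chromosome 16, only the neighbour Slc5a3 shared its shift. Many genes outside these lists rose by more. Counted from the largest increase among all genes tested, Mrps6 had rank 219 at 5 days and rank 170 at 14 days. Slc5a3, the sodium/myo-inositol cotransporter, starts 14 bases before Mrps6 on the same strand (GRCm38.p6, 92058322 against 92058336). It ends at 92087473, inside the span of Mrps6, which runs to 92112227. Slc5a3 stood at 12.11, 11.82, 11.47 and 12.18 on chow, 12.67, 12.38, 12.59 and 12.87 after 5 days, and 12.39, 12.51, 12.97 and 12.17 after 14 days. The 5-day arrays lay above all chow arrays, and at 14 days array 4 fell just below the highest chow array. The mean was higher by 0.73 ± 0.19 at 5 days (adjusted p = 0.342, limma) and by 0.62 ± 0.19 at 14 days (adjusted p = 0.528). These sizes are close to those of Mrps6, and the difference between the genes was not tested.

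A second probe set of Slc5a3 gave 0.52 and 0.54, and another, under the filter, 0.02 and 0.03. Over the 12 arrays the Pearson correlation of Slc5a3 with Mrps6 was 0.917, which includes the group differences. Because the genes share the strand and overlap, a probe placed in shared sequence would read both, and where the probes lie was not tested. The RefSeq windows from 250 bases before to 50 bases after each start share 286 of their 300 bases, and the Mrps6 line printed above shows part of that shared stretch, with the start of Slc5a3 as its first capital. No other member had such a neighbour: of 67 members with a window, Mrps6 alone (1.49%) had another protein-coding start within 500 bases on its strand, against 0.389% of 17492 protein-coding genes.

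Genes further along the chromosome did not follow. Of 9 listed neighbours above the filter, Slc5a3 included, 3 were higher and 6 lower at 5 days, with a median of -0.02, and the same counts held at 14 days, with a median of -0.03. Apart from Slc5a3, Clic6, a chloride intracellular channel protein, had the largest difference. It was at -0.54 ± 0.24 at 5 days (adjusted p = 0.489, limma) and -0.52 ± 0.24 at 14 days (adjusted p = 0.623), and its second probe set above the filter read -1.34 and -1.36. Cryzl1, a quinone oxidoreductase relative, was at -0.15 ± 0.06 (adjusted p = 0.450) and -0.11 ± 0.06 (adjusted p = 0.673).

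**Figure D3:**
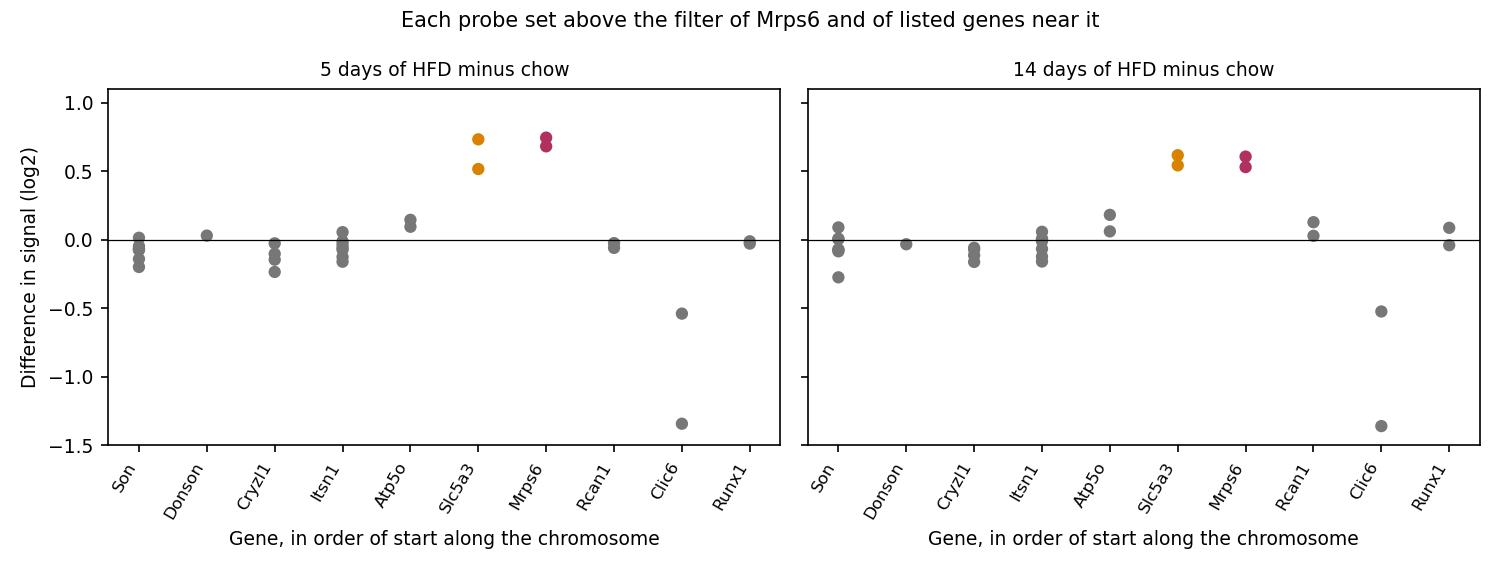
Difference in log2 signal from chow at 5 and 14 days for each probe set above the filter of Mrps6 and of the listed genes near it, in order of gene start along chromosome 16. Both probe sets of Mrps6 (0.745 and 0.68 at 5 days) and both of Slc5a3 (0.73 and 0.52) lie well above 0, and the probe sets of Clic6 lie below it.

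At 5 days against chow the family as a whole stood slightly above all genes. Of 76 members 50 were higher and 26 lower, 65.8% higher against 49.5% of all genes, and the median was 0.056 against -0.0015 over all genes. After quantile normalization 45 were higher and the median was 0.029, against -0.011 over all genes. None passed the adjusted threshold, as did 0% of all genes. At an unadjusted p under 0.05, 8 were higher (10.5%, against 4.43% of all genes) and 1 lower (1.32%, against 5.67%). In 13 members the 5-day arrays lay wholly above chow (17.1%, against 6.49%) and in 2 wholly below (2.63%, against 4.77%). Those of the first kind were Mrpl10, Mrpl12, Mrpl20, Mrpl27, Mrpl28, Mrpl33, Mrpl42, Mrpl43, Mrpl54, Mrpl57, Mrps21, Mrps34 and Mrps6, and those of the second Mrpl9 and Mrpl47. Mrps6, for which the family was selected, is part of the counts of higher members. Members share arrays and move together within groups, so these shares are not counts of independent genes. With limma's array weights 8 members passed the adjusted threshold as higher (7.99% of all genes did) and 1, Mrpl47, as lower (7.14%). Of 34 members with several probe sets above the filter, all probe sets had the same sign in 24 at 5 days and in 20 at 14 days.

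Markers of other cell types differed in the same comparison. All 6 mesothelium markers were lower, with a median difference of -0.75, and their median per array was 10.51 to 10.83 on chow and 9.80 to 10.31 after 5 days. All 5 progenitor markers (median -0.21) and all 6 mast cell markers (median -0.15) were lower too, at 11.23 to 11.60 on chow against 10.84 to 11.18, and at 8.58 to 8.90 against 8.33 to 8.61. Liver markers were higher in 8 of 9 (median 1.29), at 7.66 to 12.34 on chow and 9.38 to 13.50 after 5 days. All 8 skeletal muscle markers (median 0.33) and all 7 smooth muscle markers (median 0.30) were higher, and macrophage markers were lower in 9 of 10 (median -0.14). None of these markers passed the adjusted threshold in limma, and their part in the values of the members was not tested.

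By place in the ribosome, large subunit proteins of bacterial descent were higher in 17 of 29 at 5 days, with a median of 0.04, and large subunit proteins found only in mitochondria in 14 of 20, with a median of 0.08. Small subunit proteins of bacterial descent were higher in 12 of 17 (median 0.06) and those found only in mitochondria in 6 of 9 (median 0.04). The ranges of the 4 classes overlapped throughout. Mrps36, which bears a ribosomal name but is known as a subunit of the 2-oxoglutarate dehydrogenase complex, was at 0.10.

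Among large subunit members, Mrpl57, also known as MRP63 and found only in mitochondria, had the smallest p after Mrps6. It stood at 10.73, 10.71, 10.69 and 10.59 on chow, 11.09, 10.90, 10.92 and 11.04 after 5 days, and 11.01, 10.70, 11.10 and 11.12 after 14 days. The 5-day arrays were all above chow, and 14-day array 2 fell among the chow arrays. The differences were 0.30 ± 0.09 at 5 days (adjusted p = 0.347, limma) and 0.30 ± 0.09 at 14 days (adjusted p = 0.520). Its second probe set, below the filter, gave -0.02 and -0.09.

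Mrpl43, another large subunit protein found only in mitochondria, read 10.53, 10.61, 10.53 and 10.47 on chow, 10.82, 10.70, 10.79 and 10.84 after 5 days, and 10.69, 10.57, 10.78 and 10.99 after 14 days. The 5-day arrays did not overlap chow, and at 14 days array 2 did. Its differences were 0.25 ± 0.08 (adjusted p = 0.365, limma) and 0.22 ± 0.08 (adjusted p = 0.580). Mrpl33, the counterpart of bacterial L33, read 10.91, 11.10, 11.01 and 10.98 on chow, 11.26, 11.13, 11.17 and 11.27 after 5 days, and 11.22, 11.04, 11.35 and 11.23 after 14 days. The 5-day arrays were again all above chow, by a narrow margin in array 2, and 14-day array 2 fell within the chow range. Its differences were 0.21 ± 0.07 (adjusted p = 0.382) and 0.21 ± 0.07 (adjusted p = 0.571), while its second probe set, close to the filter, gave -0.19 and -0.16, so that its probe sets disagreed in sign.

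Mrpl54 had the largest difference after Mrps6 at 5 days, and was picked for that after its values were seen. It read 10.17, 10.18, 10.07 and 10.01 on chow, 10.47, 10.38, 10.50 and 10.30 after 5 days, and 10.53, 9.87, 10.57 and 10.52 after 14 days. At 14 days 3 arrays lay above chow and array 2 below it. The differences were 0.30 ± 0.14 (adjusted p = 0.492, limma) and 0.26 ± 0.14, the latter not past the adjusted threshold. Without 14-day array 2 the 14-day difference was 0.43 and passed that threshold. This call is no test of Mrpl54, because the array left out was its lowest and the gene was picked with its values known.

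The 4 lower members of smallest p at 5 days were all of the large subunit. Mrpl47, the counterpart of bacterial L29 near the exit of the peptide tunnel, read 9.44, 9.36, 9.50 and 9.36 on chow, 9.21, 9.09, 9.22 and 9.34 after 5 days, and 9.31, 9.56, 9.31 and 9.20 after 14 days. It was below every chow array at 5 days and overlapped chow at 14 days, with differences of -0.20 ± 0.08 (adjusted p = 0.453, limma) and -0.07 ± 0.08 (adjusted p = 0.853). Mrpl9, Mrpl19 and Mrpl23, counterparts of the bacterial proteins of the same numbers, were at -0.08, -0.11 and -0.09 at 5 days (adjusted p = 0.579, 0.595 and 0.673). All 3 probe sets of Mrpl9 were on the same side of 0 at 5 days (-0.08, -0.11 and -0.12).

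At 14 days against chow 60 members were higher and 16 lower, 78.9% higher against 55.2% of all genes, with a median of 0.078 against 0.016 over all genes. After quantile normalization of the arrays 49 were higher and the median was 0.047, against 0.0041 over all genes. None passed the adjusted threshold, as did 0% of all genes. At an unadjusted p under 0.05, 7 were higher (9.21%, against 3.67%) and none lower (against 4.30%). The groups did not overlap in 3 members, all higher (3.95%, against 2.37% of all genes higher and 2.26% lower): Mrps6, Mrpl51 and Mrpl44. Mrps6, for which the family was selected, is part of these counts. Without it 2 of 75 members were apart, close to the share of all genes. By class, 23 of 29 and 15 of 20 large subunit proteins were higher (medians 0.06 and 0.08, bacterial descent first), and 14 of 17 and 7 of 9 small subunit proteins (medians 0.08 and 0.06). This comparison shares its chow arrays with the one at 5 days. With array weights in limma, which gave 14-day arrays 2 and 4 weights of 0.376 and 0.106 against 3.54 and 1.28 for arrays 1 and 3, 44 members passed an adjusted p of 0.05 at 14 days, all higher, beside 14.6% of all genes called higher and 7.74% called lower.

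Markers of other cell types differed here as well, none past the adjusted threshold in limma. All 10 macrophage markers were lower (median -0.56), at 11.46 to 11.79 on chow and 10.01 to 11.48 after 14 days. All 6 mesothelium markers (median -0.68), 5 progenitor markers (median -0.53) and 6 mast cell markers (median -0.37) were lower, and their medians per array after 14 days were 9.15 to 10.75, 10.74 to 11.22 and 8.23 to 8.59. Liver markers were higher in 8 of 9 (median 0.87), at 9.11 to 13.21 after 14 days. All 8 skeletal muscle markers were lower (median -0.89), with the high values of chow array 3 given above. All 7 smooth muscle markers were higher (median 0.43) and all 5 endothelium markers lower (median -0.20). The part of all these markers in the values of the members was not tested.

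Mrpl51, a large subunit protein found only in mitochondria, differed little but evenly at 14 days. It read 12.48, 12.42, 12.50 and 12.43 on chow and 12.62, 12.54, 12.63 and 12.53 after 14 days, all above chow, with a difference of 0.12 ± 0.05 (adjusted p = 0.580, limma). Its second probe set above the filter gave -0.09. Mrpl44, which carries a domain related to ribonuclease III, read 10.59, 10.54, 10.55 and 10.57 on chow and 10.67, 10.66, 10.63 and 10.62 after 14 days, a difference of 0.08 ± 0.04 (adjusted p = 0.673). Its other probe sets above the filter gave 0.17, 0.0008 and 0.0025.

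The 4 lower members of smallest p at 14 days were again of the large subunit, and all overlapped chow. Mrpl45, which helps hold the ribosome at the inner membrane, was at -0.11 ± 0.10 (adjusted p = 0.811, limma). Its 14-day arrays read 10.92, 10.73, 10.80 and 10.39 against 10.80, 10.90, 10.84 and 10.75 on chow, and array 4 was the lowest of all 8. Mrpl50 was at -0.09 ± 0.10 (adjusted p = 0.850), with array 4 at 10.18 against 10.48 to 10.65 on chow. Mrpl23 was at -0.05.

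Between 14 and 5 days 55 members were higher and 21 lower, 72.4% higher against 56.0% of all genes, with a median of 0.022 against 0.012. None had an unadjusted p under 0.05, against 1.77% of all genes higher and 0.789% lower, and in none were the groups apart (0.646% and 0.278%). With array weights 16 passed the adjusted threshold, all higher, beside 10.3% of all genes called higher and 6.36% called lower. The members of smallest p were Mrps2 (0.15 ± 0.08), Mrpl19 (0.10), Mrpl47 (0.13) and Mrpl18 (0.13) among the higher, and Mrpl27 (-0.10), Mrps6 (-0.14), Mrps24 (-0.05) and Mrpl34 (-0.06) among the lower, all at an adjusted p of 0.999 (limma). Mrps2, the counterpart of bacterial S2, read 9.50, 9.58, 9.58 and 9.85 at 5 days and 9.89, 9.81, 9.78 and 9.62 at 14 days, so that the number 4 array of each group crossed into the other. The direction of this comparison turned on single arrays: without 14-day array 1 only 31 members were higher, and without 14-day array 3 only 26.

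The spread of the family within the 14-day group was wider than its median difference in any comparison. The median over members was 10.76, 10.80, 10.84 and 10.72 on chow, 10.84, 10.75, 10.77 and 10.92 after 5 days, and 10.93, 10.71, 10.97 and 10.74 after 14 days. Arrays 1 and 3 of the 14-day group lay above the other two in 65 of 76 members (85.5%), against 33.0% of all genes, and below in 0 of 76, against 21.1%. This split follows the order of the member medians just given, so the share of members is a description and no test. Without array 3 the family median at 14 days against chow was 0.018, and without array 4 it was 0.126. Within groups, members moved together: the median correlation of pairs of members, over deviations from group means in 12 arrays, was 0.6998 (quartiles 0.473 and 0.842), and 0.519 for Mrps6 with the others.

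Values of other lists moved with those 4 arrays. Of 66 subunits of the respiratory chain, 54 (81.8%) also had 14-day arrays 1 and 3 above arrays 2 and 4, whereas cytosolic ribosomal proteins had them above in 1 of 42 and below in 26. Array 4 had an epididymis marker median of 14.22, against 7.34 to 7.9995 in the other 14-day arrays, a smooth muscle median of 14.00, against 9.22 to 9.77, and a macrophage median of 10.01, against 10.97 to 11.48. Array 2 was close to arrays 1 and 3 in these markers and had the higher 3′ minus 5′ signal of Gapdh given above. Liver markers split the 14-day arrays as the members did. Their median was 13.21 and 11.82 in arrays 1 and 3 against 9.30 and 9.11 in arrays 2 and 4. It was highest, at 13.50, in 5-day array 4, where members were also high. In chow array 3 the liver and member medians, 12.34 and 10.84, were both the highest on chow. By contrast, 5-day array 2 had the next highest liver median of its group, 11.92, and the lowest member median, 10.75. The part of these differences in the spread of the members was not tested.

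**Figure D4:**
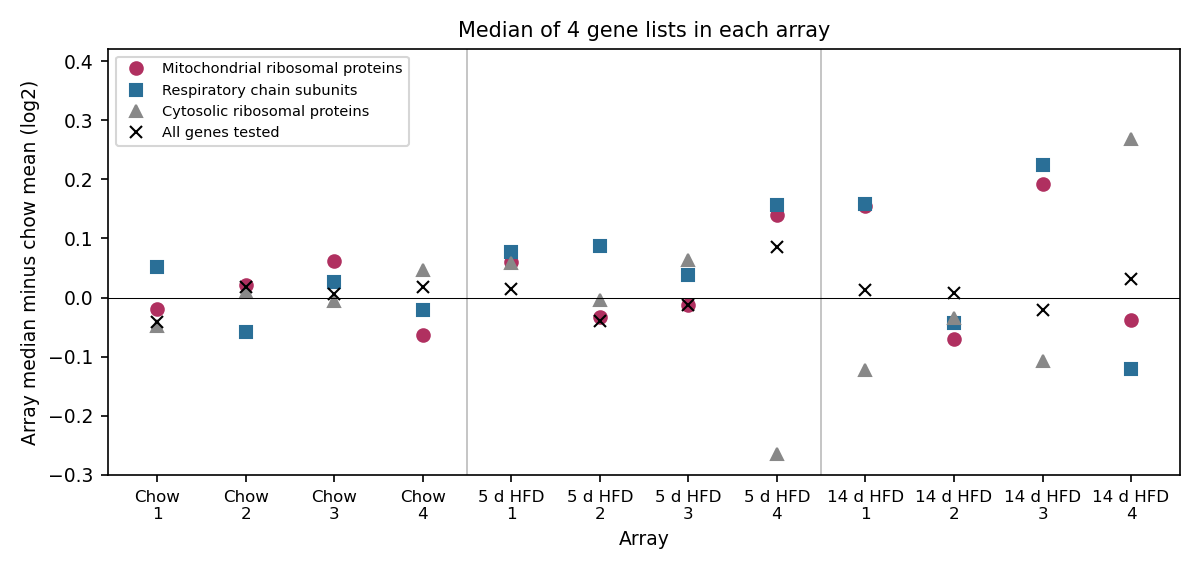
Median log2 signal in each array, minus the mean of its chow medians, for the 76 members, 66 respiratory chain subunits, 42 cytosolic ribosomal proteins and all genes tested. Members and respiratory chain subunits lie high in 14-day arrays 1 and 3 and 5-day array 4, where cytosolic ribosomal proteins lie low. The median of all genes is highest in 5-day array 4, at 9.74 against a mean of 9.65 on chow.

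Other parts of the machinery were read beside the family from lists of known components. Respiratory chain subunits, which the mitochondrial ribosome helps to complete, were higher in 55 of 66 at 5 days (median 0.06) and in 56 of 66 at 14 days (median 0.04). None passed the adjusted threshold in either comparison. Ndufb7, of complex I, was at 0.33 ± 0.10 (adjusted p = 0.347, limma) and 0.27 ± 0.10 (adjusted p = 0.580), and Ndufa1, also of complex I, at 0.21 ± 0.06 (adjusted p = 0.347) and 0.12 ± 0.06 (adjusted p = 0.664). Cytosolic ribosomal proteins, the counterparts in the cell's main ribosome, were higher in 10 of 42 at 5 days (median -0.04) and in 18 of 42 at 14 days (median -0.01), with none past the threshold.

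Mitochondrial ribosome proteins under other symbols stayed close to chow. Dap3, a GTP-binding small subunit protein, was at 0.04 ± 0.09 and 0.06 ± 0.09, Ptcd3 at 0.08 ± 0.11 and 0.05 ± 0.11, Chchd1 at -0.01 ± 0.07 and 0.03 ± 0.07, and Gadd45gip1 at 0.01 ± 0.09 and -0.01 ± 0.09 at 5 and 14 days. Their adjusted p lay at 0.859 or above in both comparisons (limma). Of a list of 6 symbols, these 4 were among the genes tested.

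Factors that work on the ribosome were mixed at 5 days and mostly higher at 14 days, none past the threshold. Of all genes 49.5% were higher at 5 days and 55.2% at 14 days. Here too the 14-day arrays differed, in the split read off the member medians. Arrays 1 and 3 lay above arrays 2 and 4 in 72.7% of the translation factors and 66.7% of the assembly factors, against 33.0% of all genes. Of 11 translation factors 5 were higher at 5 days and 9 at 14 days (medians -0.02 and 0.07). Mtif2, which places the initiator tRNA, read on average 10.15 on chow, 10.10 after 5 days and 10.35 after 14 days, a difference of 0.21 ± 0.06 from chow at 14 days (adjusted p = 0.489, limma) and of 0.26 ± 0.06 from 5 days (adjusted p = 0.999), with no overlap in either. Of 18 assembly and rRNA-modifying factors 7 were higher at 5 days and 15 at 14 days (medians -0.04 and 0.05). Mpv17l2, an inner membrane protein needed for assembly, was at 0.40 ± 0.14 (adjusted p = 0.384) and 0.34 ± 0.14 (adjusted p = 0.594), and Gtpbp10, a GTPase of large subunit assembly, at -0.13 ± 0.05 (adjusted p = 0.413) and 0.00 ± 0.05.

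Of 15 mitochondrial aminoacyl-tRNA synthetases, which charge tRNAs with amino acids, 7 were higher at 5 days and 10 at 14 days (medians -0.02 and 0.06). Of 14 genes of mitochondrial transcription and RNA handling 5 were higher at 5 days and 9 at 14 days (medians -0.05 and 0.03). Tfam, which packages and transcribes mitochondrial DNA, was at -0.08 ± 0.05 and 0.03 ± 0.05, and Polrmt, its RNA polymerase, at -0.07 ± 0.05 and -0.03 ± 0.05. Polg2, the accessory subunit of the DNA polymerase, was at -0.28 ± 0.10 at 5 days (adjusted p = 0.382, limma) and Lrpprc, which stabilises mitochondrial messenger RNAs, at 0.24 ± 0.10 at 14 days (adjusted p = 0.580).

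The regulators lay on the other side from the family. Of 10 known regulators of mitochondrial biogenesis 2 were higher and 8 lower in both comparisons with chow (medians -0.08 and -0.09). Ppargc1a, the coactivator that drives mitochondrial gene programmes, averaged 8.60 ± 0.35 (SD, n = 4) on chow, 7.98 ± 0.15 after 5 days and 8.21 ± 0.42 after 14 days. The groups overlapped, with differences of -0.62 ± 0.21 (SE; adjusted p = 0.382, limma) and -0.38 ± 0.21 (adjusted p = 0.692). Its relative Ppargc1b was at -0.36 ± 0.15 at 5 days, below every chow array (adjusted p = 0.446). Nrf1 was at -0.02 ± 0.09 and -0.08 ± 0.09, Gabpa at -0.16 ± 0.09 and -0.11 ± 0.09, and Esrra, a nuclear receptor partner of Ppargc1a, at 0.12 ± 0.07 and 0.18 ± 0.07.

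Start regions of the members were searched for the letters of sites of such factors. Of 67 members with a RefSeq window of 300 bases, 25 (37.3%) held CCGGAAG on either strand, against 9.93% of 27025 genes with a window and 17.9% of the tested genes among them. The NRF1 motif, which was matched with any base at the sixth of its 10 positions, was in 12 members (17.9%, against 5.19% and 10.3%), and AAGATGGC, the site of YY1, also in 12 (17.9%, against 3.19% and 4.86%). GGGCGG, the GC box bound by Sp1, was in 34 (50.7%, against 38.2% and 65.1%). The Mrps6 window held GGGCGG and none of the other motifs searched, as did windows of other members such as Mrpl2, Mrpl40 and Mrps14. The Mrpl57 window held CCGGAAG, the NRF1 motif and GGGCGG. The Mrpl43 window held CCGGAAG at 2 places and GGGCGG, and the Mrpl33 window CCGGAAG. A match is a run of letters, not a site shown to be bound.

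Many members start close to a gene that runs the other way. Of the 67 members, 21 (31.3%) had a protein-coding start on the opposite strand within 500 bases, against 8.42% of 17492 protein-coding genes and 11.8% of the tested ones. The 17 such partners that were tested had a median difference of -0.02 at 5 days and 0.02 at 14 days, and lay between -0.09 and 0.15 at 5 days. None of them came near the size of Slc5a3.

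Across all 12 arrays the genes whose values followed Mrps6 most closely lay outside the family. By Pearson correlation, which includes the differences between groups, they were Lamtor1 (0.967), which anchors a nutrient-sensing complex to lysosomes, Arl2bp (0.955), a partner of the small GTPase ARL2, Mpnd (0.952), Chpf2 (0.945), a chondroitin-synthesis enzyme, and Rnf26 (0.937), a ubiquitin ligase. Their own differences at 5 days were smaller than that of Mrps6, from 0.23 for Arl2bp to 0.32 for Lamtor1. Among members the closest were Mrpl57 (0.860), Mrpl33 (0.847) and Mrpl51 (0.826). The median correlation with Mrps6 was 0.461 over the members and 0.068 over all genes.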

How the data were processed

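The authors deposited 1 table of 45098 probe sets in 12 arrays, with signals in log2 units, judged from their range; probe summary and normalization are not given in the sources used here, and nothing was renormalized. Of the probe sets 34945 carried 1 gene symbol in the platform annotation, 932 several, 9160 none and 61 were controls. The 76 members, with 156 probe sets, matched RefSeq genes by Entrez ID without a change of symbol. Each of 18193 genes was read through its probe set of highest mean, and genes under the 40th percentile (7.64 log2) were left out. Limma 3.58.1 (R 4.3.3, eBayes with trend) fitted all 3 groups in a single model, with two-sided tests and Benjamini-Hochberg adjustment over 13311 genes; the fit was tested on simulated data. Arrays give no counts, so their number limits the precision.

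The members and gene lists were chosen with earlier results of these data known. Named were Mrps6; the 4 members of smallest p in each direction and comparison; the ribosome genes under other symbols; set regulators; Slc5a3; the 5 genes and 3 members most correlated with Mrps6; and from each list genes of smallest p. Mrpl54, Mrpl44 and the second Clic6 and Slc5a3 probe sets, and members named for groups that did not overlap, were picked after their values were seen. Alternatives were centred or quantile-normalized arrays, other filters and probe set rules, eBayes without trend or robust, array weights, only the groups compared, a replicate block, an adjusted p of 0.1, an epididymis covariate, and leaving out arrays. Motif searches covered both strands of RefSeq windows.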

Additional observations from a re-analysis of the deposited data

Results flagged for a closer look

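In 54 groups of 4 arrays, the highest and lowest array were set against the rest, and 3 stood apart. Chance sets apart about 1 in 20 groups. The groups came from 18 sets of values in 3 groups each. These were named members, Slc5a3, the median over members, and the gap between Mrps6 and the median of the other members. The median and the gap reuse values of the members, so the groups are not independent. Mrpl45 was at 10.91 in 5-day array 4, against 10.69 to 10.72 in the other 5-day arrays. Mrps24, the counterpart of bacterial S3, was at 11.68 in the same array, against 11.59 to 11.61. Mrpl9 was at 11.26 in chow array 3, against 11.16 to 11.17.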

How the results depend on the processing

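The 5-day and 14-day differences of Mrps6 from chow kept their sign under every alternative run, at 0.66 to 0.85 and 0.52 to 0.71. With array weights the limma calls went from 0 in each comparison to 2015, 2979 and 2212 of all genes (5 days against chow, 14 days against chow, 14 against 5 days) and to 9, 44 and 16 members. The median of the members was then 0.185 at 14 days and 0.128 at 14 against 5 days, and Mrps6 at 14 days was 0.71 (adjusted p = 0.00627, limma). That p is no test of Mrps6, because the comparison shares its chow arrays with the one that singled the gene out. The weights were also low for 14-day arrays 2 and 4, where Mrps6 was lowest in that group. With only the groups compared 213 genes and 2 members were called at 5 days. With the epididymis covariate 502 genes and 1 member were called at 5 days and 35 genes at 14 against 5 days. Without the HFD arrays numbered 4 the calls were 881, 1 and 723 genes, 1 member at 5 days and 3 (Mrps2, Mrps31 and Mrps9) at 14 against 5 days. Mrps6 is among the members called at 5 days in each of these settings and without 14-day array 4, but the family was selected on its difference there, so these calls are no test of it. The causes were not tested.

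Leaving out each array in turn gave 0 to 123, 0 to 20 and 0 to 0 genes called, and 0 to 1, 0 to 1 and 0 to 0 members. The most at 5 days came without 14-day array 4 (1 member called) and the most at 14 days without 14-day array 2 (with Mrpl54 called). The median of the members ran from 0.030 to 0.075, 0.018 to 0.126 and -0.029 to 0.068, and members with a higher mean from 47 to 55, 44 to 67 and 26 to 70. Mrps6 ran from -0.23 to -0.04 at 14 against 5 days. The 13 members above chow without overlap at 5 days were 13 to 21, and the 3 at 14 days were 3 to 14, the most without 14-day array 2. With fewer arrays in a group an absence of overlap is easier for any gene. The share of all genes was not computed in these runs, so the counts cannot be read as a result about the members.

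The replicate number as a block left Mrps6 at 0.61 at 14 days (adjusted p = 0.532) and called 0 genes in every comparison. Arrays of the same number did not deviate together (mean correlation -0.196 over 12 pairs, from -0.725 to 0.408), and 1 of 12 arrays correlated best with its own number. No sign of pairing by number was seen. A pairing is not excluded by this, because tissue markers also varied between single arrays.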

Other observations

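Slc5a3 imports myo-inositol, an osmolyte, and other genes of osmolyte transport and its control were read after its values were seen. Of 7 such genes 6 were above the filter, with Slc5a3 among them; 3 were higher at 5 days and 2 at 14 days, and none passed the adjusted threshold in limma. Slc38a2, an amino acid transporter, was at 0.36 ± 0.16 at 5 days and 0.17 ± 0.16 at 14 days, with no overlap with chow at 5 days. Slc6a6, the taurine transporter, was at -0.36 ± 0.13 and -0.27 ± 0.13, and its 5-day arrays lay wholly below chow. Nfat5, the transcription factor of the osmotic response, was at -0.16 ± 0.21 and -0.16 ± 0.21.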
